A study of Mus musculus with 6 samples.

Results

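The genes described here are 10 regulators of fat cell formation and proteins of lipid storage, chosen by symbol from the 18872 genes of the table: Zfp423, Cebpb, Cebpd, Cebpa, Pparg, Fabp4, Lpl, Plin2, Plin3 and Pnpla2. RNA of mouse embryonic fibroblasts (MEFs) was sequenced in 3 SARAF-KO-labelled libraries and 3 labelled SARAF-WT. SARAF is a protein of the endoplasmic reticulum that promotes the inactivation of store-operated Ca2+ entry. SARAF-KO mice of the study carried a Cre transgene under the ubiquitous PGK promoter together with 2 floxed Saraf alleles (PGK-Cre+, SARAF fl/fl, loxP sites around the third exon). SARAF-WT littermates had the same 2 floxed alleles without Cre (SARAF fl/fl, PGK-Cre-). By design, Cre removes the exon between the loxP sites in SARAF-KO mice only. How alike the groups were in strain background was not tested. The cells came from the trunks of embryos at embryonic day 14.5, with 1 dish per embryo, and RNA was taken at 75% confluency. No differentiation treatment is named in the labels, and which embryo each library came from is not given in the sources used here, so the p-values measure the spread between these libraries, which may be technical.

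Fat cells form in a chain of transcription factors. The zinc finger protein ZFP423 marks mesenchymal cells committed to the fat lineage. C/EBPβ and C/EBPδ act early after the hormonal stimulus and switch on C/EBPα and the nuclear receptor PPARγ, which then maintain each other and activate the genes of the fat cell. Among those genes are Fabp4 and Lpl, which handle fatty acids, the perilipins that coat lipid droplets, and the triglyceride lipase gene Pnpla2. MEFs can enter this program when treated with an adipogenic mixture, and in standard medium they remain fibroblasts.

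Recovered read totals ran between 32799080 and 37979662 in SARAF-KO-labelled libraries and between 24595137 and 32228588 in SARAF-WT-labelled libraries. All values below are normalized counts, which are read counts divided by the size factor of the library, unless a level per kilobase is named. Fold changes are on the scale of log2(normalized count + 1), SARAF-KO-labelled libraries minus SARAF-WT-labelled libraries, and adjusted p-values are from limma over 13986 genes with Benjamini-Hochberg adjustment. The targeted gene went against the labels. Saraf (chr8:34154575-34170821, plus strand) had 4631, 4476 and 4384 normalized counts in SARAF-KO-labelled libraries, against 3268, 3409 and 3306 in SARAF-WT-labelled libraries, a log2 change of 0.43 ± 0.03 (SE, limma adjusted p = 4.2e-12). A two-sided exact permutation test gave p = 0.1, the smallest that 3 against 3 allow. The count covers the whole gene, so it does not show by itself whether the floxed exon was present, and every direction below follows the library labels. Fibroblast markers were high in every library, with all 12 listed markers tested and a sum of 339106 to 344988 normalized counts in SARAF-KO-labelled libraries and 410090 to 414854 in SARAF-WT-labelled libraries.

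The start regions of members with large changes in either direction are printed first, to show which sequence features lie at the starts of the genes whose values follow. RefSeq (GRCm38.p6) gave 10 windows, each of 250 bases before and 50 bases after an annotated start, for 7 members: Pparg (3 windows), Zfp423 (2), and Cebpa, Cebpb, Plin2, Plin3 and Pnpla2 (1 each). No window was available for Cebpd, Fabp4 and Lpl. Lpl is therefore not printed, although its change was larger in size than those of Plin2 and Cebpa. Capitals mark exact matches to 4 motifs, searched on both strands. The first was the C/EBP site TTGCNNAA. The nuclear receptor half-site, which PPARγ and related receptors bind in pairs, was AGGTCA, read as TGACCT where it lies on the minus strand. The E-box was CACGTG. The TATA box was TATAAA, read as TTTATA on the minus strand. No matches of different motifs overlapped in the windows printed. The 3 Pparg windows, the Zfp423 window with 2 C/EBP-type matches and the windows of Plin2 and Cebpa are written 5′ to 3′ along each gene. Of the 2 Zfp423 windows, the one printed was chosen for its matches.
Pparg window 1 (chr6:115360894-115361193, plus strand): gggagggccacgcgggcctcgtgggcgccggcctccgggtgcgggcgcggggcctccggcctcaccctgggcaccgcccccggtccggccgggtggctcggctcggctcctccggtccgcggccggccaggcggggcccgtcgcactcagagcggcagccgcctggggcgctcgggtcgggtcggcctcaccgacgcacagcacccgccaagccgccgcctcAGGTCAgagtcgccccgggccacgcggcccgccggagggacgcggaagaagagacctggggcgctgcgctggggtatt
Pparg window 2 (chr6:115362099-115362398, plus strand): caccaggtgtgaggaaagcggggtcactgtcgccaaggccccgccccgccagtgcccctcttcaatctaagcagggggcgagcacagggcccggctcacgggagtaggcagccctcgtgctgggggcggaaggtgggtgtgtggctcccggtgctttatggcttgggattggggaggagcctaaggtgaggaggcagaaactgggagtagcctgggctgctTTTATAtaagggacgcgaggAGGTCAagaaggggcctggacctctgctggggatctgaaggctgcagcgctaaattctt
Pparg window 3 (chr6:115421816-115422115, plus strand): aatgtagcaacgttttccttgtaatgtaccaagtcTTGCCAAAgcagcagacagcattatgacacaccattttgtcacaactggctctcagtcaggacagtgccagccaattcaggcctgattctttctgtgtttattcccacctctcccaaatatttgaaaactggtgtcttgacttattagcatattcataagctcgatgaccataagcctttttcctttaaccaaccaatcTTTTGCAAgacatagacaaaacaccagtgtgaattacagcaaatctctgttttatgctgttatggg
Zfp423 window 1 (chr8:87959546-87959845, minus strand): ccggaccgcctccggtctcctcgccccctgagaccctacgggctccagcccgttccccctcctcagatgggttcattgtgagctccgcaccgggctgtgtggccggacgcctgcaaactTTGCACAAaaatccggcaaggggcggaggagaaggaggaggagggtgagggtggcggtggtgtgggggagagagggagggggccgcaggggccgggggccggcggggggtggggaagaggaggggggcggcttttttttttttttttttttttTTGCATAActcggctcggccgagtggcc
Plin2 (chr4:86670010-86670309, minus strand): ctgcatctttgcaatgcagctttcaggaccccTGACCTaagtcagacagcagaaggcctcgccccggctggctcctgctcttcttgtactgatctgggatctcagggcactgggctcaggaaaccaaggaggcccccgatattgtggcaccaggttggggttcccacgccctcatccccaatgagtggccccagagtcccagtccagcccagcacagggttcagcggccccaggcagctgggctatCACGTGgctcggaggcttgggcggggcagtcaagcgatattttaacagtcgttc
Cebpa (chr7:35119043-35119342, plus strand): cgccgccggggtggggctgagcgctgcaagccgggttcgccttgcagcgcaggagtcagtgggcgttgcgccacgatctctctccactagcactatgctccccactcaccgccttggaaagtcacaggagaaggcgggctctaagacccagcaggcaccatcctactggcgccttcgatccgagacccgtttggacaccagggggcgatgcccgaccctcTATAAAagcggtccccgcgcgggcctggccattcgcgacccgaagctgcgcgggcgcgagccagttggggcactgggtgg
Positions are counted from the start site as 0. The first Pparg window held AGGTCA at -28, and the second held AGGTCA at -9 and the TATA box on the minus strand at -29. The third Pparg window, which lies farther along the gene, held C/EBP-type matches at -215 and -16. Zfp423 carried such matches at -131 and 22. Plin2 had the half-site at -218 and the E-box at -4, and Cebpa had a TATA box at -30. In the windows not printed, the second of Zfp423 held AGGTCA at -34, Cebpb held TATAAA at 21, and Plin3 and Pnpla2 held no match to any of the 4 motifs. Over all 32851 windows of the same length, 10.8% held TTGCNNAA, 16.3% AGGTCA, 7.15% CACGTG and 13.6% TATAAA. A match describes the letters of the window only, and the count per gene does not separate transcripts that begin at different starts.

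Of the 10 members, 4 were higher and 3 lower in SARAF-KO-labelled libraries (n = 3 libraries per group, limma adjusted p under 0.05), and 3 did not pass the test. Over all genes tested, 56.2% passed, 28.2% higher and 28.0% lower, so that 7 of 10 stands against a background in which most genes differed between the groups. Plin2, Cebpa, Cebpd and Fabp4 were higher, and Pparg, Zfp423 and Lpl were lower. Cebpb, Plin3 and Pnpla2 were not called. The median log2 change of the members was 0.03, against -0.0014 over all genes tested. The same 7 genes had no overlap between the libraries of the 2 groups, where 61.4% of all genes tested had none, and the 3 others overlapped. All 10 passed the filter on low values. In bulk RNA, fewer cells that express a gene and less of its RNA per cell cannot be told apart.

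**Figure D1:**
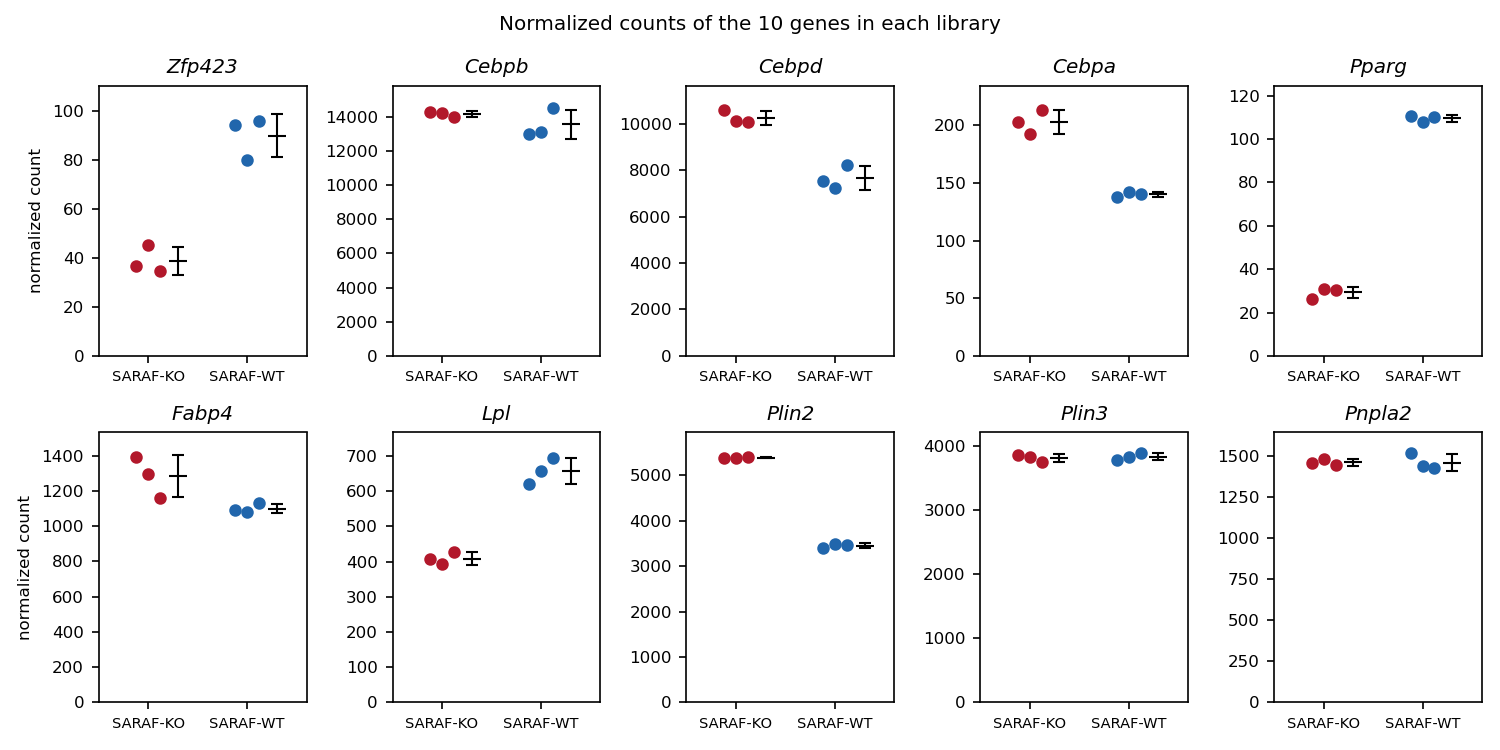
Normalized counts of the 10 members in each library, 1 panel per gene, with SARAF-KO-labelled libraries left and SARAF-WT-labelled libraries right, points for libraries and bars for the mean ± SD (n = 3). In Pparg SARAF-KO-labelled libraries lie between 26.3 and 30.8 and SARAF-WT-labelled libraries between 108 and 110.4, while the points of Cebpb, Plin3 and Pnpla2 overlap.

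Zfp423, the commitment factor, was lower in SARAF-KO-labelled libraries. Its locus is chr8:87661810-87959595 on the minus strand, with a main transcript of 8 exons. It had 36.5, 45.4 and 34.5 normalized counts in SARAF-KO-labelled libraries, against 94.2, 79.8 and 95.9 in SARAF-WT-labelled libraries. The highest library labelled SARAF-KO lay well under the lowest labelled SARAF-WT. The log2 change was -1.20 ± 0.16 (SE, 95% interval -1.53 to -0.86, limma adjusted p = 7.3e-07), which is 2.29-fold lower. The values rest on 43, 53 and 35 reads in SARAF-KO-labelled libraries against 93, 77 and 73 in SARAF-WT-labelled libraries, and Zfp423 had the largest relative spread of the members, with a coefficient of variation of 14.9% in SARAF-KO-labelled libraries and 9.81% in SARAF-WT-labelled libraries. Of all genes tested, 495 had a larger absolute change. Zfp521, which encodes a related zinc finger protein that opposes ZFP423, averaged 1129 ± 30.7 normalized counts in SARAF-KO-labelled libraries and 1102 ± 10.8 in SARAF-WT-labelled libraries (SD, n = 3 each), a log2 change of 0.03 (95% interval -0.05 to 0.12, limma adjusted p = 0.49). There were 31.4, 25.2 and 31.7 Zfp521 reads per Zfp423 read in SARAF-KO-labelled libraries, against 11.8, 13.8 and 11.4 in SARAF-WT-labelled libraries.

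Of the 2 early factors, Cebpd passed the test and Cebpb did not. Cebpd (chr16:15887286-15891031, plus strand, 1 exon) had 10589.6, 10094 and 10063 normalized counts in SARAF-KO-labelled libraries, against 7546, 7240.4 and 8233 in SARAF-WT-labelled libraries. Its log2 change was 0.42 ± 0.03 (SE, 95% interval 0.35 to 0.49, limma adjusted p = 1.3e-10), or 1.34-fold higher. Cebpb (chr2:167688915-167690418, plus strand, 1 exon) had 14272, 14193 and 13959 normalized counts in SARAF-KO-labelled libraries, against 12982, 13100.1 and 14523 in SARAF-WT-labelled libraries. The groups overlapped because the third library labelled SARAF-WT had the highest value of all 6. The log2 change of Cebpb was 0.07 ± 0.03 (SE, 95% interval 0.00 to 0.13, limma adjusted p = 0.081). Without that library it was 0.12 with a limma adjusted p of 0.00094, so that whether Cebpb passed the test depended on 1 library. Within each library the ratio of Cebpd to Cebpb reads was 0.742, 0.711 and 0.721 under the label SARAF-KO, against 0.581, 0.553 and 0.567 under the label SARAF-WT, with no overlap.

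Both early factors share exonic bases with a gene on the opposite strand, and the library kit did not mark strand, so reads from the shared bases cannot be told apart. For Cebpd these are 562 bases (15.0% of its exonic bases) shared with Spidr, a gene of DNA repair. Spidr averaged 2280.4 ± 24.3 normalized counts in SARAF-KO-labelled libraries and 1989 ± 87.0 in SARAF-WT-labelled libraries (SD, n = 3 each), itself a called difference of 0.20 on the log2 scale (limma adjusted p = 2.9e-05). The part of Spidr reads in the Cebpd count was not tested. For Cebpb the overlap is 312 bases (20.7%) with Tmem189, whose averages were 2025 ± 29.7 and 2028 ± 38.3 normalized counts under the labels SARAF-KO and SARAF-WT (SD, n = 3 each).

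The 2 central factors went in opposite directions. Pparg (chr6:115360951-115490399, plus strand, main transcript of 7 exons) had 26.3, 30.8 and 30.6 normalized counts in SARAF-KO-labelled libraries, against 110.4, 108 and 110.3 in SARAF-WT-labelled libraries. Every library labelled SARAF-KO was below every library labelled SARAF-WT, and the spread within each group was small against the gap. The log2 change was -1.87 ± 0.16 (SE, 95% interval -2.19 to -1.55, limma adjusted p = 2.0e-10), or 3.66-fold lower, the largest absolute change among the members. Over all genes tested, 173 had a larger one. The gene was low in both groups, with 31, 36 and 31 reads in SARAF-KO-labelled libraries against 109, 104 and 84 in SARAF-WT-labelled libraries.

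Cebpa (chr7:35119293-35121928, plus strand, 1 exon) had 203, 193 and 213 normalized counts in SARAF-KO-labelled libraries, against 138, 142 and 141 in SARAF-WT-labelled libraries. All 3 SARAF-KO-labelled libraries were above all 3 labelled SARAF-WT. Its log2 change was 0.53 ± 0.09 (SE, 95% interval 0.34 to 0.72, limma adjusted p = 3.0e-05), or 1.44-fold higher. A non-coding antisense gene, Gm45091, shares 51 bases with Cebpa (1.93% of its exonic bases) and was not analysed here. Read against each other within a library, there were 0.130, 0.160 and 0.144 Pparg reads per Cebpa read under the label SARAF-KO, against 0.801, 0.759 and 0.785 under the label SARAF-WT. The ratio needs no scaling between libraries, and its ranges were far apart.

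Of the 2 fatty acid handling members, 1 was higher and 1 lower. Fabp4, which encodes the fatty acid binding protein of fat cells and macrophages, lies at chr3:10204088-10208576 on the minus strand with a main transcript of 4 exons. It had 1395, 1296 and 1157 normalized counts in SARAF-KO-labelled libraries, against 1092, 1078 and 1129 in SARAF-WT-labelled libraries. The lowest library labelled SARAF-KO was only just above the highest labelled SARAF-WT. The log2 change was 0.22 ± 0.05 (SE, 95% interval 0.11 to 0.32, limma adjusted p = 0.00070), and it was 0.16 (limma adjusted p = 0.014) without the first library labelled SARAF-KO. Lpl, which encodes the lipase that frees fatty acids from circulating lipoproteins, lies at chr8:68880491-68907448 on the plus strand with a main transcript of 10 exons. It had 406, 392 and 428 normalized counts in SARAF-KO-labelled libraries, against 619.9, 658 and 695 in SARAF-WT-labelled libraries. The groups did not overlap, and the log2 change was -0.68 ± 0.06 (SE, 95% interval -0.81 to -0.56, limma adjusted p = 5.0e-10), or 1.61-fold lower.

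Of the lipid droplet members, Plin2 alone passed the test. Plin2, the perilipin that coats droplets in most cell types, lies at chr4:86648386-86670060 on the minus strand with a main transcript of 8 exons. It had 5381, 5376 and 5401 normalized counts in SARAF-KO-labelled libraries, against 3395, 3490.1 and 3464 in SARAF-WT-labelled libraries. Its log2 change was 0.64 ± 0.03 (SE, 95% interval 0.59 to 0.70, limma adjusted p = 2.8e-16), or 1.56-fold higher. The 3 SARAF-KO-labelled libraries were nearly equal, with a coefficient of variation of 0.24%. On their 6332, 6278 and 5478 reads, counting alone gives a wider spread, so this value does not measure how alike the cultures were. Plin3, a perilipin that is present throughout the cytosol and moves to new droplets, lies at chr17:56277476-56292873 on the minus strand with a main transcript of 8 exons. It had 3869, 3836 and 3746 normalized counts in SARAF-KO-labelled libraries, against 3788, 3829 and 3893 in SARAF-WT-labelled libraries. The groups overlapped, with a log2 change of -0.01 ± 0.03 (SE, 95% interval -0.06 to 0.05, limma adjusted p = 0.84). The ratio of Plin2 to Plin3 reads was 1.39, 1.40 and 1.44 under the label SARAF-KO, against 0.896, 0.911 and 0.890 under the label SARAF-WT. Read numbers also depend on transcript length, so this ratio does not show which perilipin was more abundant. Per kilobase of main transcript, Plin2 was above Plin3 under both labels. The levels were 2853 against 1047 under the label SARAF-KO, and 1827 against 1053 under the label SARAF-WT.

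Pnpla2 encodes ATGL, the lipase that takes the first fatty acid off a stored triglyceride, and lies at chr7:141455198-141460743 on the plus strand with a main transcript of 8 exons. It had 1457, 1483 and 1443 normalized counts in SARAF-KO-labelled libraries, against 1515, 1439 and 1423 in SARAF-WT-labelled libraries. The range under the label SARAF-KO lay inside that under the label SARAF-WT, and the log2 change was 0.00 ± 0.04 (SE, 95% interval -0.07 to 0.08, limma adjusted p = 0.96). There were 3.69, 3.62 and 3.74 Plin2 reads per Pnpla2 read under the label SARAF-KO, against 2.24, 2.43 and 2.43 under the label SARAF-WT.

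**Figure D2:**
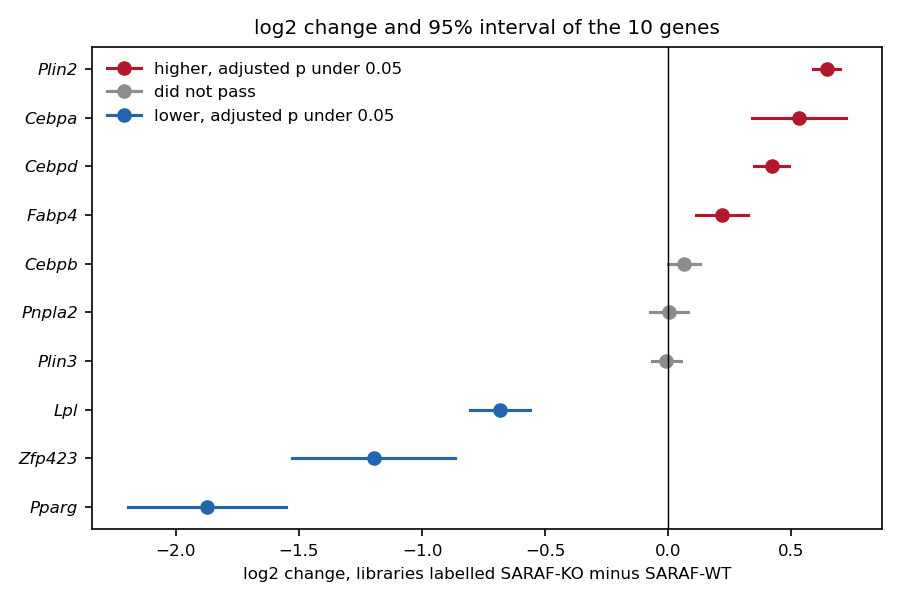
Log2 changes of the 10 members, SARAF-KO-labelled libraries minus SARAF-WT-labelled libraries, with 95% intervals from limma. Red marks genes that were higher and blue genes that were lower at an adjusted p under 0.05, and grey the others. Pparg (-1.87), Zfp423 (-1.20) and Lpl (-0.68) lie left of 0, Plin2 (0.64), Cebpa (0.53), Cebpd (0.42) and Fabp4 (0.22) right of it.

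Per kilobase of main transcript, the members spanned a wide range of levels in both groups. The order under the label SARAF-KO was Cebpb (a level of 9402 normalized counts per kilobase), Plin2 (2853), Cebpd (2736), Fabp4 (1432), Plin3 (1047), Pnpla2 (812), Lpl (99.3), Cebpa (77.3), Pparg (16.6) and Zfp423 (7.91). Under the label SARAF-WT it was Cebpb (8999), Cebpd (2048), Plin2 (1827), Fabp4 (1227), Plin3 (1053), Pnpla2 (811), Lpl (159.8), Pparg (62.0), Cebpa (53.3) and Zfp423 (18.3). No neighbours in either order overlapped in the ranges of their 3 libraries. The orders differed at 2 places, with Plin2 above Cebpd and Cebpa above Pparg under the label SARAF-KO, and the reverse under the label SARAF-WT. Cebpb was the most abundant member and Zfp423 the least abundant under both labels.

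The other genes of each pathway were counted from lists of known genes, and each count below stands against the 28.2% higher and 28.0% lower, with a median log2 change of -0.0014, over all genes tested. Of the other C/EBP family members, all 3 that were in the table passed the test and were higher in SARAF-KO-labelled libraries. Cebpg had a log2 change of 0.23 (limma adjusted p = 5.5e-06), Ddit3, the stress-induced family member known as CHOP, of 0.18 (0.0011), and Cebpz, a CCAAT-binding protein that shares the family name, of 0.17 (5.0e-05). Cebpe was not analysed here. With Cebpa, Cebpb and Cebpd, the 6 measured genes of that name or family had positive log2 changes. Of these 5 were called higher, where 28.2% of all genes tested were called higher. Cebpg and Cebpa lie close together, with Cebpg at -0.073 Mb from Cebpa by gene starts.

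Among other perilipins and lipid droplet proteins, 9 of 16 were tested, with 2 higher, 3 lower and a median log2 change of -0.03. Rab18, a droplet-bound small GTPase, was higher by 0.17 on the log2 scale (limma adjusted p = 2.8e-05), and so was Hilpda, an inhibitor of ATGL, with 311 ± 9.49 normalized counts in SARAF-KO-labelled libraries and 247 ± 11.7 in SARAF-WT-labelled libraries (SD, n = 3 each, log2 change 0.33, limma adjusted p = 0.00059). The droplet enzymes Hsd17b11 (log2 change -0.13) and Ldah (-0.12) were lower. The third tested perilipin, Plin4, was lower at 322, 303 and 264 normalized counts in SARAF-KO-labelled libraries, against 326, 340.0 and 399 in SARAF-WT-labelled libraries (log2 change -0.26, limma adjusted p = 0.011). Calls of 2 of these genes rested on single libraries: Plin4 was not called without SARAF-KO replicate 3 (limma adjusted p = 0.099) or without SARAF-WT replicate 3 (0.10), and Ldah was not called without SARAF-KO replicate 2 (0.057). The fat cell perilipin Plin1 was near 0, with 0, 1.71 and 0 normalized counts in SARAF-KO-labelled libraries, against 2.03, 2.07 and 0 in SARAF-WT-labelled libraries, and was under the filter. So was Plin5, the perilipin of oxidative tissues, which averaged 5.67 ± 1.28 normalized counts in SARAF-KO-labelled libraries and 5.50 ± 1.49 in SARAF-WT-labelled libraries (SD, n = 3 each). Of the tested perilipin genes, Plin2 was higher, Plin4 lower and Plin3 not called.

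Of the genes of lipolysis and its control, 12 of 14 were tested, with 2 higher, 4 lower and a median log2 change of -0.07. Lipe, which encodes the hormone-sensitive lipase that acts after ATGL, had 478, 492 and 483 normalized counts in SARAF-KO-labelled libraries, against 619.9, 663 and 651 in SARAF-WT-labelled libraries (log2 change -0.41, limma adjusted p = 5.0e-07). Pde3b, the phosphodiesterase through which insulin restrains lipolysis, was lower as well (-0.37, 8.0e-09), while Prkar2b, a regulatory subunit of protein kinase A, was higher (0.37, 1.1e-08), and so was the β-adrenergic receptor gene Adrb1 (0.90, 0.00053). With a minimum mean of 50, only 6 genes of the list were left to test in place of 12, and 1 of them was called higher. Abhd5 and G0s2, which bind ATGL, were not called, whereas Hilpda was (above). Abhd5, the ATGL co-activator CGI-58, had a log2 change of 0.02 (limma adjusted p = 0.67), and the inhibitor G0s2 one of -0.06 with a wide 95% interval of -0.77 to 0.64, at 14.1 ± 4.87 normalized counts in SARAF-KO-labelled libraries and 14.7 ± 5.74 in SARAF-WT-labelled libraries (SD, n = 3 each).

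Among 15 tested genes of triglyceride synthesis, 7 were higher and 3 lower, and the median log2 change was 0.14. Agpat6, which encodes the microsomal acyltransferase GPAT4, was 4456 ± 20.7 normalized counts in SARAF-KO-labelled libraries and 3394 ± 129 in SARAF-WT-labelled libraries (SD, n = 3 each, log2 change 0.39, limma adjusted p = 3.6e-11). The acyltransferases Agpat3 (0.16, 3.8e-05) and Agpat1 (0.15, 0.00037) were higher, and the phosphatidate phosphatase Lpin1 was lower (-0.23, 5.3e-05).

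Of 12 tested genes that serve or resemble lipoprotein lipase or take up lipoproteins, 7 were lower and 2 higher, with a median log2 change of -0.21, where 28.0% of all genes tested were lower and 28.2% higher. Lipg, the endothelial lipase of the same enzyme family, averaged 389 ± 19.2 normalized counts in SARAF-KO-labelled libraries and 808 ± 41.0 in SARAF-WT-labelled libraries (SD, n = 3 each), a log2 change of -1.05 (limma adjusted p = 7.5e-14) beside the -0.68 of Lpl. Pcsk6, a proprotein convertase, was lower with a log2 change of -0.69 (1.4e-13), and so were the apolipoprotein gene Apoe (-0.53, 8.2e-12) and the lipoprotein receptor gene Lrp1 (-0.25, 5.9e-09). Angptl4, an inhibitor of the lipase, was also lower, at 2322 ± 74.7 normalized counts in SARAF-KO-labelled libraries and 2694 ± 54.0 in SARAF-WT-labelled libraries (SD, n = 3 each, log2 change -0.21, limma adjusted p = 4.0e-06).

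Among 12 tested genes of fatty acid binding and uptake, 6 were higher and 5 lower, with a median log2 change of 0.01, and the tested relatives of Fabp4 diverged. Fabp5, the epidermal form that is often made beside Fabp4, had 2414, 2545 and 2492 normalized counts in SARAF-KO-labelled libraries, against 1479, 1475 and 1346 in SARAF-WT-labelled libraries (log2 change 0.79, limma adjusted p = 5.6e-15). Fabp7, the brain form, had 69.7, 75.4 and 73.0 normalized counts in SARAF-KO-labelled libraries, against 18.2, 16.6 and 31.5 in SARAF-WT-labelled libraries (1.73, 2.0e-07). Fabp3, the heart form, had 59.5, 67.7 and 57.2 normalized counts in SARAF-KO-labelled libraries, against 136, 145 and 126 in SARAF-WT-labelled libraries (-1.13, 4.5e-08). There were 1.73, 1.96 and 2.15 Fabp5 reads per Fabp4 read under the label SARAF-KO, against 1.35, 1.37 and 1.19 under the label SARAF-WT. The fatty acid transporter Slc27a3 (-0.84, 7.6e-11) and the acyl-CoA synthetase Acsl4 (-0.27, 8.8e-09) were lower.

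Of 31 tested activators of adipogenesis, 5 were higher and 13 lower, with a median log2 change of -0.03. Ebf3, of the early B-cell factor family whose members act upstream of Pparg, had 184, 176 and 171 normalized counts in SARAF-KO-labelled libraries, against 799, 868 and 864 in SARAF-WT-labelled libraries (log2 change -2.25, limma adjusted p = 2.0e-19). Bmp4, a secreted signal that commits mesenchymal cells to the fat lineage and acts upstream of Zfp423, averaged 338 ± 3.21 normalized counts in SARAF-KO-labelled libraries and 689 ± 32.7 in SARAF-WT-labelled libraries (SD, n = 3 each, -1.02, 1.6e-13). Its receptor gene Bmpr1a averaged 2969 ± 29.1 under the label SARAF-KO and 4069 ± 100.0 under the label SARAF-WT (-0.45, 1.3e-12). Irs2, which relays the insulin signal, was higher (0.42, 7.6e-11).

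Of 30 tested inhibitors, 13 were higher and 8 lower, with a median log2 change of 0.04. Dlk1, which encodes the preadipocyte factor Pref-1, was the most abundant of those named, with 9062, 9069 and 8706 normalized counts in SARAF-KO-labelled libraries, against 23981, 22235 and 23099 in SARAF-WT-labelled libraries (log2 change -1.37, limma adjusted p = 1.9e-22). Wnt10b, a Wnt ligand that holds preadipocytes back from differentiation, had 344, 344 and 324 normalized counts in SARAF-KO-labelled libraries, against 101, 105 and 95.9 in SARAF-WT-labelled libraries (1.74, 2.1e-14). Wisp2, which encodes CCN5, a secreted protein that binds ZFP423, was also higher (1.19, 3.3e-12), and the TGF-β mediator Smad3 was lower (-0.38, 3.9e-12). Both lists of regulators held called genes in both directions, as the 10 members did.

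**Figure D3:**
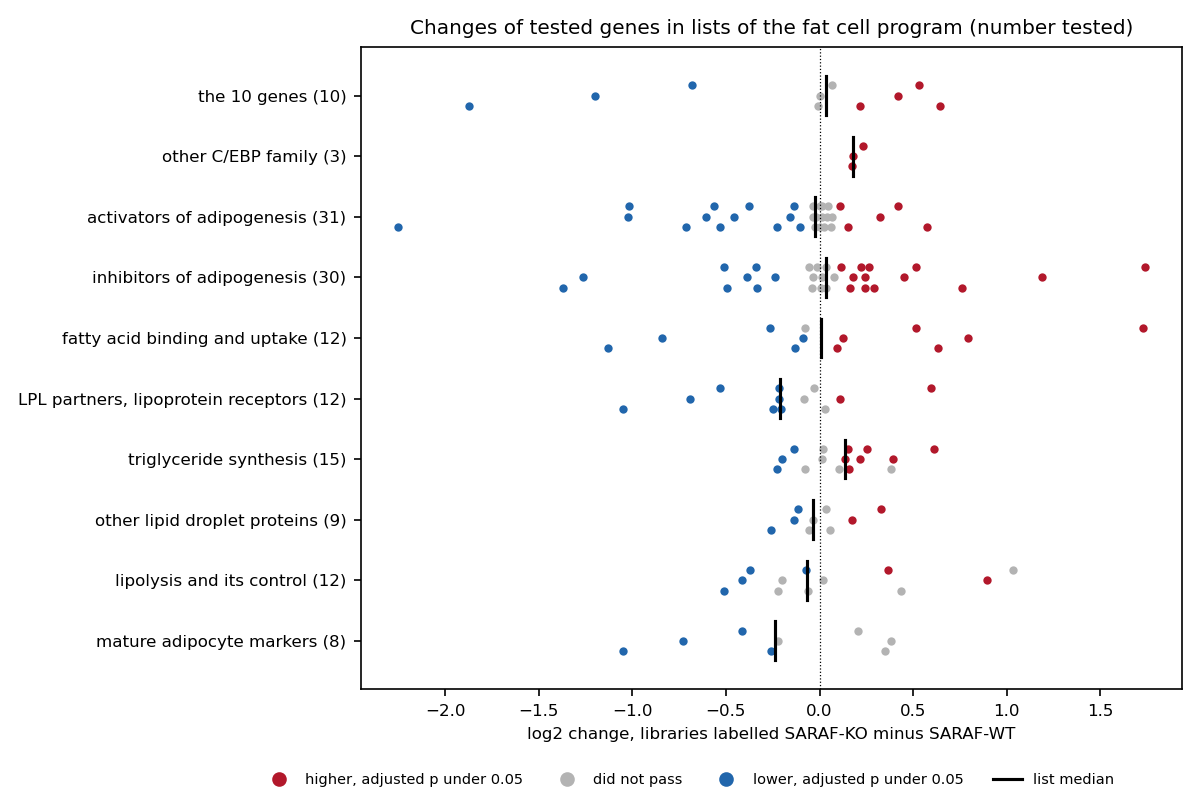
Log2 changes of all tested genes in the members, the 8 pathway lists and the mature adipocyte markers, 1 row per list, with red points higher and blue points lower at an adjusted p under 0.05 (limma), grey points for the others and a bar at each median. The lipoprotein lipase partners (median -0.21) and mature adipocyte markers (-0.24) lie left of 0, and triglyceride synthesis (0.14) and the other C/EBP genes (0.18) right of it.

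Some markers of other cells the cultures could hold also differed between the groups, while no tested skeletal muscle marker was called. Of 19 mature adipocyte markers, 16 were in the table and 8 were tested, with a median log2 change of -0.24. Of these 4 were lower by limma and 0 higher, also at an unadjusted p under 0.05, and 0 were higher with edgeR and with DESeq2. Their summed level was 881 to 946 normalized counts in SARAF-KO-labelled libraries and 1128 to 1190 in SARAF-WT-labelled libraries. Lipe and Plin4 are on this list, and their counts given above make up most of this sum in every library. The defining markers of fat cells were at or near 0 in all 6 libraries: Adipoq and Cfd were listed at 0 in all but 1 library labelled SARAF-KO, and Cidec in all but 1 labelled SARAF-WT. Macrophages also make Fabp4. Of 9 macrophage markers in the table, 3 were tested, with 1 higher and 1 lower. Their sum was 1531 to 1576 normalized counts under the label SARAF-KO and 1912 to 2036 under the label SARAF-WT, while the pan-leukocyte marker Ptprc was at 0 in all but 1 library. Endothelial cells make Fabp4 and Lipg. Of 5 endothelial markers tested, 2 were higher and 3 lower, and the markers summed to 2267 to 2393 normalized counts in SARAF-KO-labelled libraries and 3021 to 3052 in SARAF-WT-labelled libraries. The 5 tested markers made up most of that sum as well. The defining markers were low, with Pecam1 at 3.83 ± 1.88 normalized counts in SARAF-KO-labelled libraries and 5.67 ± 2.86 in SARAF-WT-labelled libraries, and Cdh5 at 10.8 ± 5.41 in SARAF-KO-labelled libraries and 8.81 ± 5.29 in SARAF-WT-labelled libraries (SD, n = 3 each). Of 9 epithelial and mesothelial markers in the table, 4 were tested, with 3 higher and 1 lower. They summed to 4898 to 5334 normalized counts under the label SARAF-KO and 1749 to 1803 under the label SARAF-WT. The fibroblast markers given above were lower in sum, with 8 of 12 lower and 3 higher. The part of these differences in the values of the members was not tested.

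The members do not share a locus, but Saraf, Lpl and Zfp423 are all on chromosome 8, where Lpl lies 34.7 Mb and Zfp423 53.5 Mb from Saraf. Tested genes within 5 Mb of each member were counted, in a window chosen after the data had been seen. Around Saraf, 8 of 25 were higher and 4 lower. Around Pparg, 36 of 68 (52.9%) were lower and 4 higher, with a median log2 change of -0.13, against 28.0% lower over all genes tested. They include Gt(ROSA)26Sor, at -2.29 Mb from Pparg (log2 change 0.21, called higher). The paper names a FLP line with an altered allele of that locus among the lines crossed. Whether these cells kept that allele is not given in the sources used here, and its part was not tested. Around Fabp4, 16 of 23 (69.6%) were higher and 2 lower, with a median of 0.25, close to the 0.22 of Fabp4 itself, and Fabp5 was among them. Around Plin2, 14 of 26 were higher and 5 lower (median 0.16). Lpl and Zfp423, which were lower, had more higher than lower neighbours, with 49 higher and 21 lower of 116 around Lpl and 40 higher and 13 lower of 90 around Zfp423. The neighbours of Cebpa (15 higher and 18 lower of 64), Cebpd (30 and 22 of 100), Plin3 (10 and 12 of 53) and Pnpla2 (26 and 31 of 96) had the 2 directions in nearer numbers, and those of Cebpb held 10 higher and 29 lower of 80. Bmp4 and Bmpr1a, both on chromosome 14, had 29 lower neighbours of 40 around Bmp4 and 36 of 55 around Bmpr1a. The part of position in the changes of these genes was not tested.

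**Figure D4:**
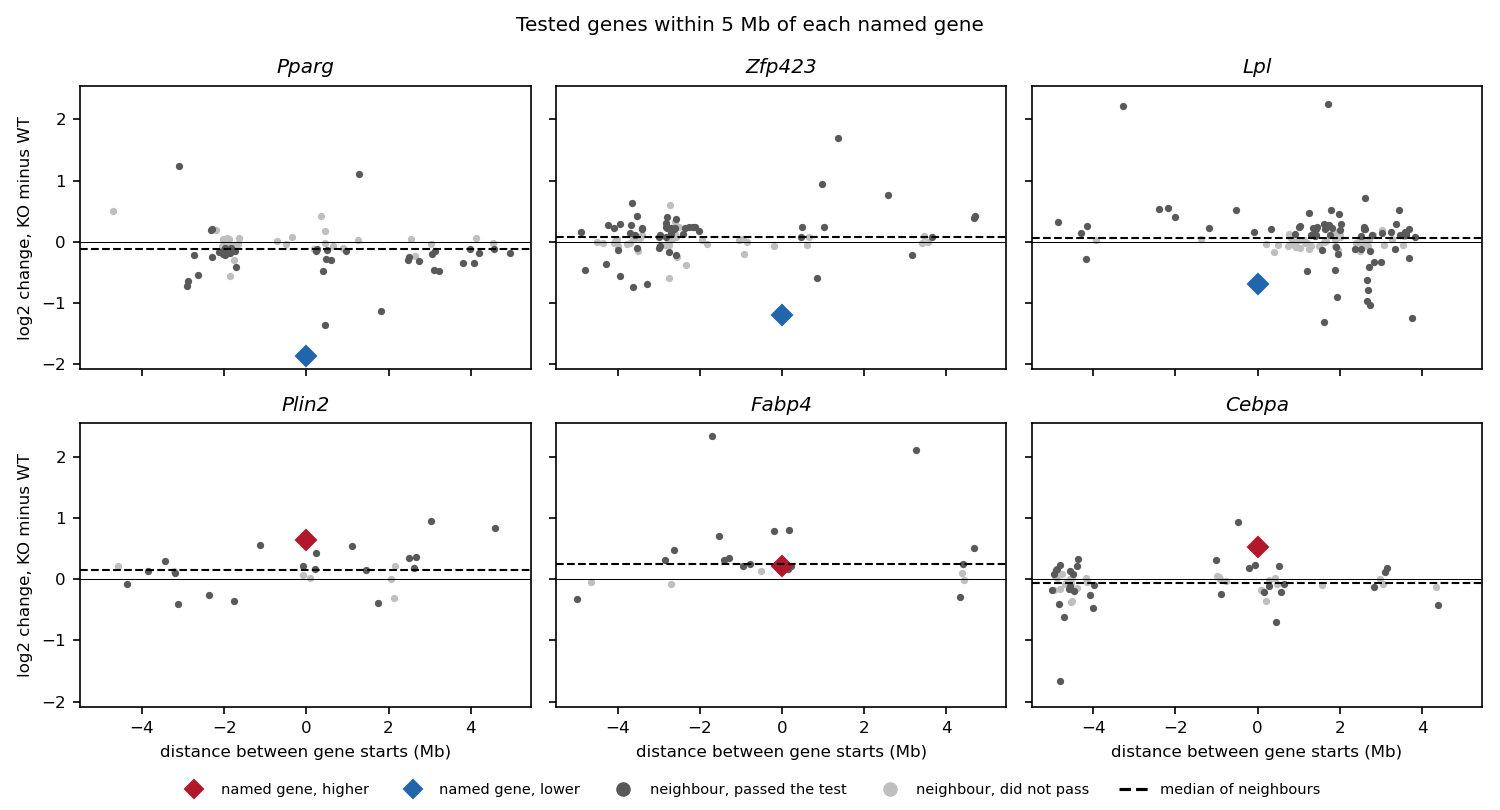
Log2 changes of tested genes within 5 Mb of 6 members, by distance in Mb between gene starts, with the member as a diamond at 0, neighbours that passed the test in dark grey, the others in light grey, and a dashed line at their median. Neighbours of Pparg lie mostly below 0 (median -0.13) and those of Fabp4 mostly above (0.25), while Lpl and Zfp423 lie below neighbours with medians of 0.07 and 0.08.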

How the data were processed

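Libraries were made with the TruSeq RNA v2 kit and sequenced as single reads. Per the submitters' processing notes, reads were mapped to GRCm38 with TopHat2 2.0.10, counted per gene with HTSeq and normalized with DESeq2. Not given in the sources used here were the HTSeq settings and the authors' DESeq2 version. The table deposited by the authors holds a signal value for each of 18872 genes and 6 libraries, which is a normalized count. It also holds the authors' own comparison, with a mean, a log2 fold change, a Wald score, a p-value and an adjusted p-value deposited for wt over ko columns, and none of these was used. No value column was without a sample (0 columns).

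Values divided by the smallest positive value of their library came out whole in 100% of cases (tolerance 1e-06), which gave back the read counts. Pairs of libraries were compared by chi-square per degree of freedom (genes of 20 reads or more), which ran between 1.56 and 4.15 inside a group and between 41.5 and 49.8 across groups, so no library was a copy of another. Genes averaging 10 or more (13986) were tested on log2(normalized count + 1) by limma 3.58.1 under R 4.3.3, with a trend in the variance, Benjamini-Hochberg adjustment over all of them and a threshold of 0.05. The script was tested on simulated data. Alternatives (16 in all) were edgeR 4.0.16, DESeq2 1.42.0 and limma-voom on recovered reads, TMM and scaling to the sum of reads, no filter or a minimum mean of 50, pseudocounts of 0.5 and 5, a replicate block, and leaving out each library. The median log2 change of all genes was -0.0014, 0.00066 with TMM and 0.0034 scaled to the sum of reads.

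The members and lists were chosen with earlier results of these data known. Named are all members, Saraf, up to 4 genes of each pathway list with the smallest p among those called, and tested C/EBP, perilipin and FABP relatives. Zfp521, Spidr, Tmem189, Gm45091, Abhd5, G0s2 and Angptl4 were named outside this rule for their known relation to, or overlap with, a member. Positions and transcripts came from GENCODE M21 on GRCm38, with 18083 symbols (95.8%) matched, and levels per kilobase used the main protein-coding transcript. The promoter motifs and the 5 Mb window were chosen after the data had been seen. With 3 libraries a group, the smallest exact permutation p is 0.1. Counts of reads set the precision of low genes such as Pparg and Zfp423.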

Additional observations from a re-analysis of the deposited data

How the results depend on the processing

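All 7 called members kept their direction and an adjusted p under 0.05 under the 16 alternatives. Their highest adjusted p was 0.014, for Fabp4, with a log2 change of 0.16 without the first library labelled SARAF-KO. Cebpb was the only member whose call changed in any of these fits. Over the fits that left out each library in turn, Cebpb ran between 0.036 and 0.12 on the log2 scale, and it was called higher without SARAF-WT replicate 3 (0.12, limma adjusted p = 0.00094, range of adjusted p over all alternatives 0.00094 to 0.30). Plin3 ran between -0.017 and 0.0060 and Pnpla2 between -0.015 and 0.030, with changes of sign and no call. Genes called numbered 7926 with edgeR, 6646 with DESeq2, 7911 with limma-voom and 6948 to 7910 without 1 library, against 7864. With a replicate block 7801 genes were called and no call of a member changed. Deviations of same-numbered libraries correlated at -0.0011, 0.0023 and -0.00090, so the numbers did not pair them. With DESeq2, calls were 2 in place of 4 lower genes of lipolysis, 1 in place of 3 lower genes of triglyceride synthesis and 3 in place of 6 higher genes of fatty acid binding and uptake. Of 34 named genes called outside the members, 2 (Plin4 and Ldah) lost their call without 1 library. Without SARAF-WT replicate 2, 4 in place of 2 lipolysis genes were higher. The cause of these shifts was not tested. Precision was lowest for genes with few reads, such as Pparg, Zfp423 and G0s2.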

Other observations

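Markers of brown fat and of mesenchymal progenitors, which were not described above, also held called genes in both directions. Of 12 brown fat markers, 5 were tested, with 2 called higher and 3 called lower in SARAF-KO-labelled libraries (median log2 change -0.09). Their summed level was 4483 to 4512 normalized counts in SARAF-KO-labelled libraries and 5146 to 5406 in SARAF-WT-labelled libraries. The brown fat uncoupling protein gene Ucp1 averaged 0.85 normalized counts in SARAF-KO-labelled libraries and 0.68 in SARAF-WT-labelled libraries and was not tested. Of 11 tested markers of preadipocytes and mesenchymal progenitors, 5 were higher and 6 lower (median -0.18), with a sum of 102009 to 102565 normalized counts in SARAF-KO-labelled libraries and 114570 to 116905 in SARAF-WT-labelled libraries. Skeletal muscle markers summed to 72.2 to 80.8 normalized counts in SARAF-KO-labelled libraries and 72.9 to 86.0 in SARAF-WT-labelled libraries, and of the 2 tested, 0 were called by limma, 0 had an unadjusted p under 0.05, and 0 were called with edgeR or DESeq2.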
